A study of Mus musculus with 16 samples.

Results

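The 10 genes described here, Tsc22d3, Zbtb16, Hif3a, Sgk1, Dusp1, Errfi1, Rasd1, Ddit4, Nfkbia and Fam107a, are known direct targets of dexamethasone, a synthetic glucocorticoid. They were chosen for that known response, with earlier results of these data known, so their rise in DIAM is no independent check of it. They were taken from the deposited table by gene symbol and are 10 of its 20581 genes. Total RNA was sequenced from cultured smooth muscle cells, taken from mouse aortas, in 16 libraries, 4 in each of 4 groups. The mice were C57BL/6J. The KO mice had floxed Arg1 alleles and Cre recombinase under the erythropoietin receptor gene, which directs recombination to the red blood cell lineage. The smooth muscle cells that were cultured are not of that lineage, and whether they were recombined was not checked here. The WT mice were littermates of the KO mice. Cells of each genotype stayed in DMEM (Dulbecco's modified Eagle medium) plus 10% fetal bovine serum, or spent 10 days in DIAM, which is DMEM with 0.1 µM dexamethasone, 1 µM insulin and 50 µg/mL L-ascorbic acid. Only the DIAM groups received dexamethasone. The additives were given together, so the part of dexamethasone in a difference between DIAM and DMEM cannot be told apart from that of insulin, of ascorbic acid or of the days in the new medium, and no source used here says whether DIAM held serum.

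Glucocorticoids bind the glucocorticoid receptor, a transcription factor that resides in the cytoplasm until it binds hormone and then enters the nucleus. There it binds palindromic DNA sites called glucocorticoid response elements, often as a dimer and often far from the gene it controls. The targets described here include transcription regulators and brakes on other signalling pathways, such as a MAP kinase phosphatase, an inhibitor of NF-kB and an inhibitor of the growth kinase complex mTORC1.

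The libraries held 37221192 to 47626331 estimated counts. Nr3c1, which encodes the glucocorticoid receptor, was present in every library and lower in DIAM. Its level was 168 ± 10.2 CPM (counts scaled to library size and by TMM; mean ± SD, n = 4) in WT cells in DMEM and 115 ± 14.3 CPM in DIAM, a log2 fold change of -0.54 ± 0.08 (SE; adjusted p = 1.98e-05, edgeR). In KO cells it was 161 ± 10.1 CPM in DMEM and 129 ± 5.75 CPM in DIAM, a log2 fold change of -0.31 ± 0.08 (adjusted p = 0.00229, edgeR). The 10 smooth muscle markers examined were all present. Of the 10, 1 rose and 5 fell in DIAM in WT cells, and 2 rose and 5 fell in KO cells. The summed level of all 10 is given as CPM without TMM scaling, as for all marker sums. It ranged from 4550 to 6660 CPM over the DMEM libraries and from 2130 to 3440 CPM over the DIAM libraries. All 7 adipocyte markers measured rose in DIAM in each genotype, and their summed level went from 69.6 to 122 CPM in the DMEM libraries to 1540 to 3350 CPM in the DIAM libraries. Fibroblast markers, of which 5 of 8 rose and 3 fell in each genotype, summed to 8810 to 13100 CPM in DMEM and 15600 to 19700 CPM in DIAM. Gsn alone went from 751 to 790 CPM in DMEM to 8420 to 16300 CPM in DIAM, and without it the sum was lower in DIAM, at 3010 to 7570 CPM against 8050 to 12400 CPM in DMEM. All 20581 genes of the deposited table had counts, so it could not show a marker at 0 in every library. The adipocyte marker Lep had no single entry in it. In bulk RNA, fewer cells of a type and less RNA per cell cannot be told apart, and the part of these cell types in the results below was not tested. Arg1 itself had 0 to 49 counts a library, so that its level does not check the genotype labels. Xist, the RNA of the inactive X chromosome of female cells, had 4041 to 12613 counts in every library, although all libraries carry the label male. The Y-linked genes Ddx3y, Kdm5d, Eif2s3y and Uty had no single entry in the deposited table, so no level was read for them.

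WT library 2 in DIAM was the lowest of its group for 8 of the 10 genes and the highest for the other 2, Tsc22d3 and Ddit4. WT library 4 in DIAM was the highest of that group for 7 of the 10 genes and the lowest for 1. Neither was an outlier for any of the 10 genes by Dixon's criterion for 4 samples, used below. The summed Schwann cell markers of WT library 2 were the highest of all libraries, at 588 CPM. They were 391, 253 and 243 CPM in WT libraries 1, 3 and 4 in DIAM and 42.8 to 160 CPM in the KO libraries in DIAM. Its summed adipocyte markers, at 1540 CPM, and smooth muscle markers, at 2130 CPM, were the lowest of the DIAM libraries. The log2 fold changes of the 10 genes between genotypes in DIAM are therefore given with and without it.

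In DIAM all 10 genes were higher than in DMEM in cells of each genotype, and in no case did the 4 DIAM libraries overlap the 4 DMEM libraries. The size of the change ranged from 1.59-fold for Ddit4 to a ratio of 614 for Zbtb16 in WT cells. All 10 passed the test in WT cells and all 10 in KO cells (the quasi-likelihood test of edgeR, Benjamini-Hochberg adjusted over 14217 genes, adjusted p under 0.05). Of all genes tested, 55.1% were called in WT cells (27.6% higher and 27.5% lower) and 60.7% in KO cells (29.8% higher and 30.8% lower). DIAM libraries lay wholly above DMEM libraries for 24.3% of all genes in WT cells and 27.3% in KO cells, and wholly below them for 24.7% and 27.8%. The median log2 fold change of the 10 genes was 3.74 in WT cells and 3.91 in KO cells, beside -0.01 and -0.02 over all genes tested. Of the 10, Zbtb16, Hif3a, Rasd1 and Fam107a stayed below 1 CPM in every DMEM library and so met the filter on low counts only through DIAM libraries. For these 4 the call adds nothing to the counts themselves. The other 6 genes were above 1 CPM in every library, and over them the median log2 fold change was 2.52 in WT cells and 2.68 in KO cells. The plot of levels by library shows every value.

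**Figure D1:**
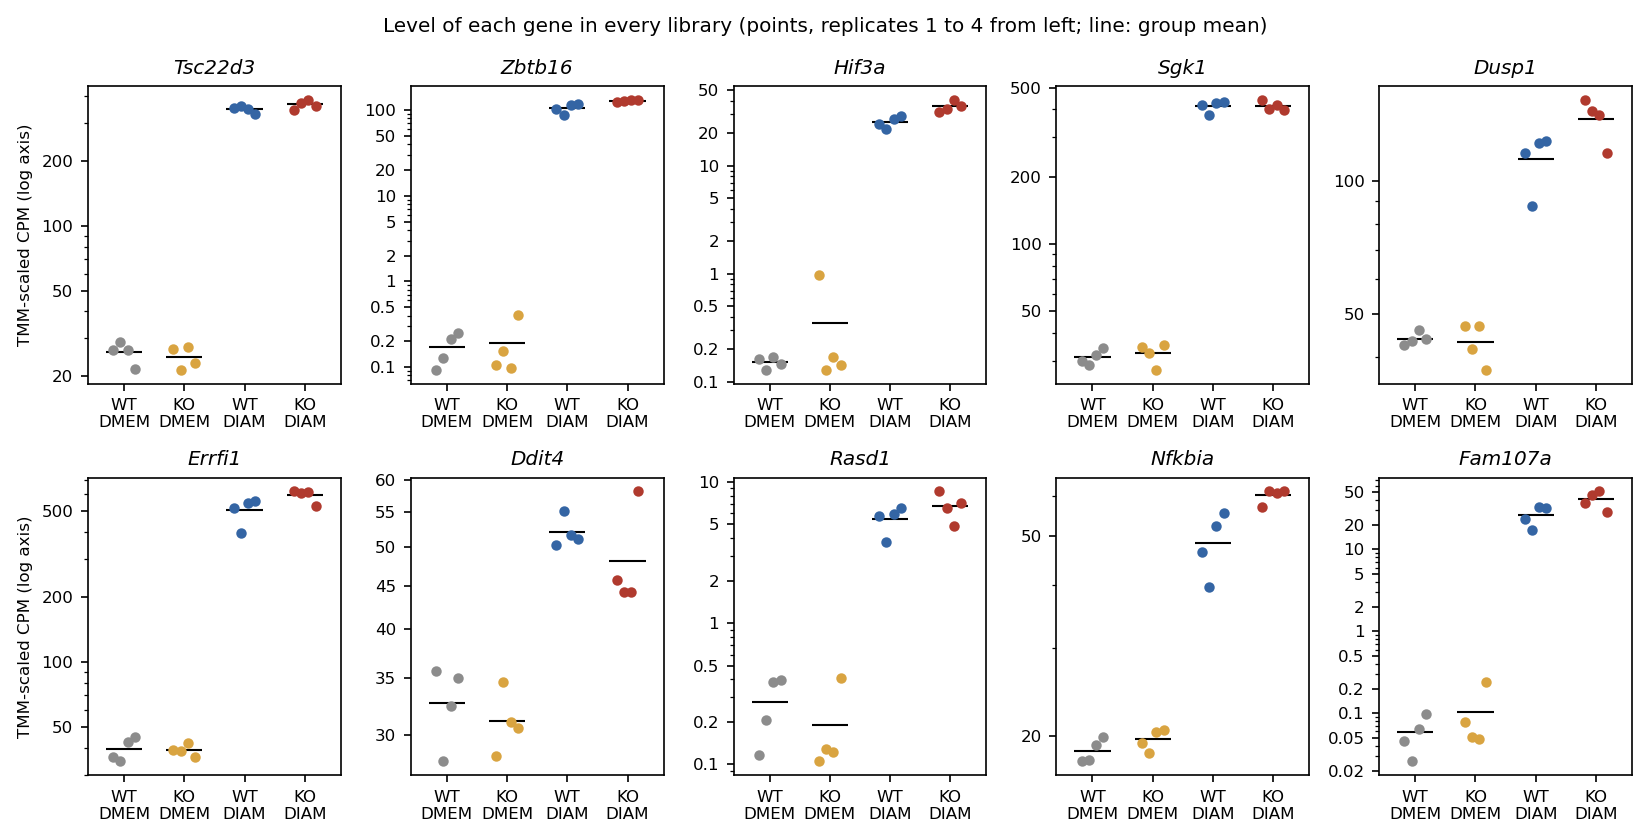
Level of each of the 10 genes in every library, in TMM-scaled CPM on a log axis, by genotype and medium. Points are libraries 1 to 4 from left to right and lines are group means (n = 4). In each panel the 8 DIAM points lie above the 8 DMEM points.

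Among the transcription regulators, Tsc22d3 (ENSMUSG00000031431) encodes GILZ, a leucine zipper protein that binds and restrains NF-kB and AP-1 and is a standard readout of glucocorticoid action. It stood at 26.6, 29.0, 26.6 and 21.6 CPM in WT libraries 1 to 4 in DMEM and at 351, 360, 349 and 331 CPM in WT libraries in DIAM. In KO cells it stood at 26.9, 21.4, 27.3 and 23.0 CPM in DMEM and at 344, 372, 385 and 360 CPM in DIAM. The lowest DIAM library was thus more than 10 times the highest DMEM library, and the genotypes overlapped in each medium. The log2 fold change of DIAM against DMEM was 3.75 ± 0.09 in WT cells (13.4-fold; SE; adjusted p = 4.89e-14, edgeR) and 3.89 ± 0.09 in KO cells (14.8-fold; adjusted p = 3.01e-14, edgeR). With group means of 348 ± 12 CPM for WT and 365 ± 17.4 CPM for KO cells in DIAM, its coefficient of variation among WT libraries was 3.46%.

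Zbtb16 (ENSMUSG00000066687) encodes PLZF, a zinc finger repressor that glucocorticoids induce in many cell types. It had 4, 5, 10 and 10 counts in WT libraries in DMEM and 4, 6, 4 and 17 counts in KO libraries in DMEM. In DIAM its level was 105 ± 14.3 CPM in WT cells, with libraries from 87.0 to 119 CPM, and 129 ± 3.42 CPM in KO cells, with libraries from 126 to 133 CPM. It was thus close to undetected in DMEM and well expressed in every DIAM library. The ratio of DIAM to DMEM was 614 in WT cells (exact 95% counting interval 427 to 917) and 664 in KO cells (468 to 977). The fitted log2 fold changes were 9.24 ± 0.22 in WT cells and 9.35 ± 0.21 in KO cells. With so few counts in DMEM their size depends on the scale. With limma on log2(CPM + 1) they were 6.50 and 6.78. The counting intervals cover counting error only. Without KO library 4 in DMEM, which held 17 of the 31 counts of its group, the fitted change in KO cells was 10.05.

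Hif3a (ENSMUSG00000004328) encodes a subunit of the hypoxia-inducible factors, some of whose forms restrain the other subunits. It had 7, 5, 8 and 6 counts in WT libraries in DMEM and 37, 5, 7 and 6 counts in KO libraries. In DIAM it stood at 24.3, 22.1, 26.9 and 28.9 CPM in WT libraries and at 31.5, 33.8, 41.0 and 35.4 CPM in KO libraries. All DMEM libraries were thus far below the DIAM libraries, although KO library 1 in DMEM stood apart from the other 3. The ratio of DIAM to DMEM was 166 (113 to 254) in WT cells and 102 (78.6 to 136) in KO cells, with fitted log2 fold changes of 7.35 ± 0.38 and 6.66 ± 0.34. Without KO library 1 in DMEM the fitted change in KO cells was 7.87.

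The related subunit genes moved in different directions. In WT cells Hif1a, which encodes the main oxygen-regulated subunit, fell from 385 ± 30.6 to 147 ± 7.19 CPM (log2 fold change -1.39 ± 0.06, adjusted p = 2.96e-11, edgeR). KO cells had 378 ± 20.4 CPM of Hif1a in DMEM and 124 ± 4.51 CPM in DIAM, a log2 fold change of -1.60 ± 0.06 (adjusted p = 5.14e-12, edgeR). Epas1, which encodes HIF-2alpha, rose from 128 ± 10.1 to 397 ± 43.6 CPM in WT cells (log2 fold change 1.63 ± 0.12, adjusted p = 1.56e-08, edgeR). In KO cells it rose from 113 ± 24.1 to 397 ± 12.2 CPM (log2 fold change 1.82 ± 0.12, adjusted p = 3.71e-09, edgeR). Of 12 tested target genes of these factors, 4 rose and 4 fell in WT cells and 5 rose and 4 fell in KO cells. Their median log2 fold change was -0.02 in WT cells and 0.25 in KO cells, beside -0.01 and -0.02 over all genes. Adm, which encodes the vasodilator peptide adrenomedullin, rose from 196 ± 25.3 to 496 ± 55.7 CPM in WT cells, and Bnip3, which encodes a mitophagy receptor, rose from 85.8 ± 11.6 to 171 ± 15.3 CPM (adjusted p = 2.23e-08 and 1.82e-07, edgeR).

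Sgk1 (ENSMUSG00000019970) encodes a kinase that resembles AKT, acts on ion channels and FOXO factors, and is induced by glucocorticoids and by serum. Its promoter windows include a full match to a glucocorticoid response element. The RefSeq promoter table for build GRCm38.p6 holds the 250 bases before each annotated start, and 8 of the 10 genes matched it, with 18 windows. Zbtb16 and Rasd1 did not match. The windows were searched on both strands for a glucocorticoid response element, written as GNACA, 3 free bases and TGTNC, a cyclic AMP response element TGACGTCA, an NF-kB site, written as GGG, 2 free bases and TTTCC, an E-box CACGTG and a TATA box TATAAA. Of the 32851 windows of all genes, 0.387% held the glucocorticoid response element, 1.55% the cyclic AMP response element, 1.41% the NF-kB site, 6.02% the E-box and 12.4% the TATA box. The 2 genes with a glucocorticoid response element in a window were Sgk1, in 1 of its 6 windows, and Fam107a, in 2 of its 3 windows, which start 2 bases apart and share the same match. Both stretches are shown because they hold these matches, in capitals, together with an E-box match in capitals at the start of the Sgk1 stretch. The Sgk1 stretch is chr10:21993640-21993889, plus strand, and the response element GAACAGAATGTTC lies at positions -188 to -176 from the start of transcription. The Fam107a stretch is chr14:8309796-8310029, minus strand, and the element GGACATGGTGTTC lies at -118 to -106.
Sgk1: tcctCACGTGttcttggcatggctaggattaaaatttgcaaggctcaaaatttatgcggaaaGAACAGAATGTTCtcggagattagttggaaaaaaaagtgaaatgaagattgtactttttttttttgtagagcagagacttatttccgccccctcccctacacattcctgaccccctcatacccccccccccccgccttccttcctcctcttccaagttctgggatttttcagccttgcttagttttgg
Fam107a: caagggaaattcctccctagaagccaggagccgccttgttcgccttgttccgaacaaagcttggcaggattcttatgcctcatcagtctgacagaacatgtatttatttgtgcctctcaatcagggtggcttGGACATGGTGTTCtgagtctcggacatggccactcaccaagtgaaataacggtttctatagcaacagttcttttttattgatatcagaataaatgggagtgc
A match is a description of letters and not a measured binding site. The deposited counts are sums per gene and do not say which start site was used.

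Sgk1 stood at 30.1, 28.8, 31.9 and 34.4 CPM in WT libraries in DMEM and at 419, 377, 429 and 433 CPM in WT libraries in DIAM. In KO libraries it stood at 34.5, 32.4, 27.3 and 35.4 CPM in DMEM and at 443, 402, 419 and 399 CPM in DIAM. The media were separated by a wide gap and the genotypes overlapped within each. From DMEM to DIAM the log2 fold change was 3.73 ± 0.09 in WT cells (adjusted p = 2.43e-14, edgeR) and 3.68 ± 0.08 in KO cells (adjusted p = 2.08e-14, edgeR).

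Dusp1 (ENSMUSG00000024190) encodes a phosphatase that inactivates the MAP kinases p38, JNK and ERK. It stood at 42.6, 43.4, 46.1 and 44.0 CPM in WT libraries in DMEM and at 116, 87.8, 122 and 123 CPM in WT libraries in DIAM. In KO libraries it stood at 47.1, 41.8, 47.0 and 37.4 CPM in DMEM and at 153, 144, 141 and 116 CPM in DIAM. The rise was thus smaller than that of Tsc22d3 or Sgk1, with 1 low DIAM library in each genotype. The log2 fold change was 1.35 ± 0.11 in WT cells (2.55-fold; adjusted p = 3e-08, edgeR) and 1.68 ± 0.11 in KO cells (3.2-fold; adjusted p = 2.07e-09, edgeR).

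Errfi1 (ENSMUSG00000028967) encodes MIG6, a feedback inhibitor that binds the kinase domain of the epidermal growth factor (EGF) receptor. It stood at 36.3, 34.5, 42.7 and 45.0 CPM in WT libraries in DMEM and at 519, 396, 549 and 559 CPM in WT libraries in DIAM. In KO libraries it stood at 38.9, 38.6, 42.1 and 36.2 CPM in DMEM and at 622, 610, 613 and 530 CPM in DIAM. It rose in every DIAM library to far above the DMEM range, with WT library 2 and KO library 4 the lowest of their groups. On the log2 scale the change was 3.67 ± 0.12 in WT cells (12.8-fold; adjusted p = 5.34e-13, edgeR) and 3.93 ± 0.12 in KO cells (15.2-fold; adjusted p = 2.89e-13, edgeR).

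The promoter windows of Dusp1 and Errfi1 both held the cyclic AMP response element, and that of Nfkbia held an NF-kB site. They are shown with the matches in capitals. The Dusp1 stretch is chr17:26508520-26508722, minus strand, with the cyclic AMP response element at -143 to -136 and an E-box at -126 to -121. The Errfi1 stretch is chr4:150854950-150855069, plus strand, with the cyclic AMP response element at -51 to -44 and a TATA box at -28 to -23. The Nfkbia stretch is chr12:55492648-55492897, minus strand, with the NF-kB site GGAAATTCCC, a match on the other strand, at -29 to -20.
Dusp1: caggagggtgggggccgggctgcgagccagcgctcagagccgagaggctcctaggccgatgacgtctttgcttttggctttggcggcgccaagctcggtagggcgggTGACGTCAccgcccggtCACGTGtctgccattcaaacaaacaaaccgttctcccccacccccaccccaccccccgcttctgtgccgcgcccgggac
Errfi1: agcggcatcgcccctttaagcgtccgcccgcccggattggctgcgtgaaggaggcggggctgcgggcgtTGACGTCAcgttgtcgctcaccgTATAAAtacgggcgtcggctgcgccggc
Nfkbia: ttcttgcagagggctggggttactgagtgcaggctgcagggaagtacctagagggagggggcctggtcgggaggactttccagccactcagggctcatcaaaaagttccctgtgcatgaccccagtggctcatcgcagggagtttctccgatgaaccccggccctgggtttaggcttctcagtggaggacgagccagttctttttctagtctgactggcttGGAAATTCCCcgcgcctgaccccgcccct
Another 2 windows of Sgk1 held a TATA box. The single window of Hif3a, that of Ddit4 and the 3 windows of Tsc22d3 held none of the motifs searched, which says only that these letters are not in these windows.

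MAP kinase target genes, and the genes of EGF family receptors and ligands, moved in both directions. Of 20 tested MAP kinase target genes, 10 rose and 6 fell in WT cells and 10 rose and 5 fell in KO cells, with median log2 fold changes of 0.13 and 0.26. Fosl1, an AP-1 subunit gene, rose from 4.10 ± 0.445 to 19.1 ± 2.19 CPM in WT cells (log2 fold change 2.22 ± 0.11, adjusted p = 1.66e-10, edgeR). Spry1, which encodes an inhibitor of receptor tyrosine kinase signalling, fell from 86.7 ± 9.88 to 28.4 ± 3.18 CPM (log2 fold change -1.61 ± 0.10, adjusted p = 1.68e-09, edgeR). Of 9 tested EGF family receptors and ligands, 5 rose and 1 fell in WT cells, and 4 rose and 2 fell in KO cells. Their median log2 fold changes were 1.2 and 0.27. Tgfa, which encodes a ligand of the EGF receptor, rose from 2.18 ± 0.68 to 26.7 ± 3.26 CPM in WT cells (log2 fold change 3.62 ± 0.19, adjusted p = 1.9e-10, edgeR). KO cells had 2.26 ± 0.461 CPM of it in DMEM and 29.7 ± 2.82 CPM in DIAM. The ligand gene Nrg1 fell from 15.1 ± 0.886 to 4.75 ± 0.324 CPM in WT cells (log2 fold change -1.67 ± 0.13, adjusted p = 2.32e-08, edgeR). Egfr, the receptor that the Errfi1 product inhibits, rose in KO cells from 188 ± 30.1 to 487 ± 30.1 CPM (log2 fold change 1.37 ± 0.12, adjusted p = 6.31e-08, edgeR). Nrg1 is named for WT cells and Egfr for KO cells because each was there among the 2 genes of smallest p. This is no comparison of the genotypes.

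Rasd1 (ENSMUSG00000049892) encodes DEXRAS1, a Ras-like small GTPase named for its induction by dexamethasone. It had 5, 8, 18 and 16 counts in WT libraries and 4, 5, 5 and 17 counts in KO libraries in DMEM. In DIAM it stood at 5.75, 3.77, 5.88 and 6.57 CPM in WT libraries and at 8.61, 6.56, 4.88 and 7.04 CPM in KO libraries. It stayed a weakly expressed gene in DIAM and spread more among libraries than Tsc22d3 or Sgk1. The ratio of DIAM to DMEM was 19.6 (exact 95% counting interval 14.6 to 26.9) in WT cells and 35.0 (24.5 to 51.8) in KO cells, with fitted log2 fold changes of 4.30 ± 0.37 and 5.11 ± 0.39. Without KO library 4 in DMEM, which held 17 of the 31 counts, the fitted change in KO cells was 5.80.

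Ddit4 (ENSMUSG00000020108) encodes REDD1, which restrains mTORC1 in stressed or glucocorticoid-treated cells. It changed the least of the 10 genes. It stood at 35.7, 27.9, 32.4 and 35.0 CPM in WT libraries in DMEM and at 50.3, 55.1, 51.7 and 51.1 CPM in WT libraries in DIAM. In KO libraries it stood at 28.3, 34.6, 31.1 and 30.6 CPM in DMEM and at 45.7, 44.2, 44.2 and 58.2 CPM in DIAM. The media did not overlap, but the gap was narrow and KO library 4 in DIAM lay above the other 3. Its log2 fold change was 0.67 ± 0.09 in WT cells (1.59-fold; adjusted p = 1.83e-05, edgeR) and 0.62 ± 0.09 in KO cells (1.54-fold; adjusted p = 2.96e-05, edgeR). Its rise ranked 1874 of 14217 genes in WT cells and 2124 in KO cells. Of 16 tested genes of mTORC1 and FoxO control, 7 rose and 1 fell in WT cells and 7 rose and 2 fell in KO cells. Deptor, which encodes another inhibitor of mTORC1, rose from 25.5 ± 3.07 to 174 ± 14.6 CPM in WT cells (log2 fold change 2.77 ± 0.11, adjusted p = 6e-12, edgeR), and Sesn3, a FoxO target gene of the sestrin family, fell from 214 ± 2.76 to 78.6 ± 11.3 CPM (log2 fold change -1.44 ± 0.10, adjusted p = 5.43e-09, edgeR).

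Nfkbia (ENSMUSG00000021025) encodes IkB-alpha, which holds NF-kB in the cytoplasm and is itself a target of NF-kB. It stood at 17.8, 17.9, 19.2 and 19.9 CPM in WT libraries in DMEM and at 46.4, 39.6, 52.3 and 55.6 CPM in WT libraries in DIAM. In KO libraries it stood at 19.4, 18.5, 20.4 and 20.6 CPM in DMEM and at 57.2, 61.5, 61.0 and 61.5 CPM in DIAM. The DMEM libraries of the genotypes overlapped, whereas in DIAM every KO library was above every WT library. The log2 fold change of DIAM against DMEM was 1.37 ± 0.08 in WT cells (2.59-fold; adjusted p = 1.32e-09, edgeR) and 1.61 ± 0.08 in KO cells (3.05-fold; adjusted p = 1.82e-10, edgeR). Of 20 tested genes of the NF-kB pathway and its targets, 6 rose and 6 fell in WT cells and 7 rose and 7 fell in KO cells, with medians of -0.06 and -0.08. Il6, an inflammatory cytokine gene, fell from 19.6 ± 4.84 to 2.30 ± 0.177 CPM in WT cells (log2 fold change -3.09 ± 0.17, adjusted p = 4.83e-10, edgeR). KO cells had 19.5 ± 3.16 CPM of it in DMEM and 1.48 ± 0.214 CPM in DIAM. Birc3, which encodes an inhibitor of apoptosis, rose from 13.3 ± 1.1 to 34.1 ± 2.79 CPM in WT cells (log2 fold change 1.36 ± 0.08, adjusted p = 1.12e-09, edgeR).

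Fam107a (ENSMUSG00000021750) encodes DRR1, an actin-binding protein that stress and glucocorticoids induce in the brain. It had 2, 1, 3 and 4 counts in WT libraries and 3, 2, 2 and 10 counts in KO libraries in DMEM. In DIAM it stood at 23.6, 17.3, 32.8 and 32.1 CPM in WT libraries and at 36.6, 46.5, 51.6 and 28.5 CPM in KO libraries. It was thus all but absent in DMEM, and in DIAM it varied more among libraries of a group than the other genes with such large changes. The ratio of DIAM to DMEM was 445 (exact 95% counting interval 242 to 929) in WT cells and 383 (239 to 657) in KO cells, with fitted log2 fold changes of 8.74 ± 0.40 and 8.54 ± 0.37. Without KO library 4 in DMEM, which held 10 of the 17 counts, the fitted change in KO cells was 9.35.

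**Figure D2:**
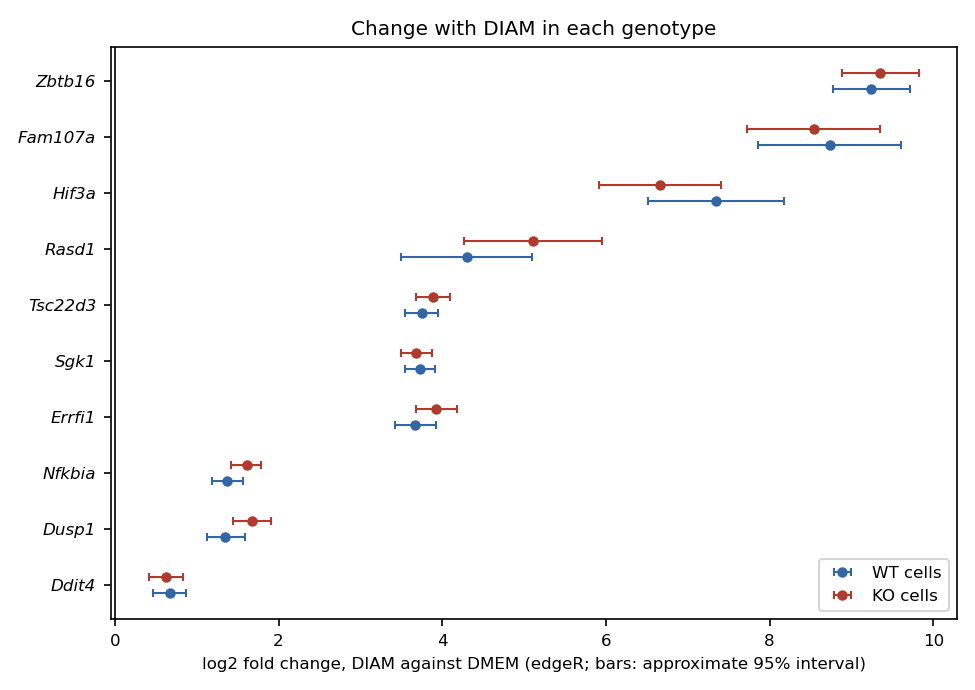
Log2 fold change of DIAM against DMEM in WT and KO cells for each gene, from edgeR, with approximate 95% intervals. The genes run from about 0.6 for Ddit4 to above 9 for Zbtb16, and the 4 genes that were near 0 counts in DMEM have the widest intervals.

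The 10 genes fell into 4 ranges of change, which the plot of fold changes by genotype shows. Zbtb16, Fam107a and Hif3a, with Rasd1 below them, changed from a few counts and had the largest changes fitted by edgeR. The sizes of these 4 depend on the scale. With limma on log2(CPM + 1) the log2 fold changes in WT and KO cells were 6.50 and 6.78 for Zbtb16, 4.65 and 5.21 for Fam107a, 4.52 and 4.79 for Hif3a and 2.33 and 2.69 for Rasd1. With quantile normalization they were 7.14 and 7.40, 5.41 and 5.91, 5.13 and 5.34, and 2.78 and 3.25 in the same order. On both of these scales Rasd1 lay below Tsc22d3, Sgk1 and Errfi1, which were at 3.57 to 3.90. Tsc22d3, Sgk1 and Errfi1 rose from a measurable level and ranked 199, 201 and 216 of 14217 genes in WT cells, with log2 fold changes of 3.75, 3.73 and 3.67 that lay within each other's intervals. Dusp1 and Nfkbia rose by 1.35 and 1.37 in WT cells on the log2 scale, again within each other's interval, and ranked 974 and 955. Ddit4 stood below them. By edgeR the order of these ranges was the same in KO cells.

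Other genes known to respond to glucocorticoids, a list also chosen with earlier results of these data known, rose more often than they fell. Of 28 tested, 23 rose and 3 fell in WT cells, and 24 rose and 2 fell in KO cells. Their median log2 fold changes were 1.74 and 1.71, beside -0.01 and -0.02 over all genes. Fkbp5, which encodes a chaperone partner of the glucocorticoid receptor, rose from 21.7 ± 1.03 to 506 ± 53.3 CPM in WT cells (log2 fold change 4.54 ± 0.08, adjusted p = 2.08e-15, edgeR). KO cells had 20.9 ± 1.51 CPM of it in DMEM and 606 ± 19.4 CPM in DIAM (log2 4.85 ± 0.08, adjusted p = 9.33e-16, edgeR). Sult1a1, a sulfotransferase gene, rose to 121 ± 17.4 CPM in WT cells, from 1.99 ± 0.37 in DMEM, and to 177 ± 9.39 CPM in KO cells, from 2.08 ± 0.414 (adjusted p = 4.89e-14 and 2.08e-14, edgeR). Those that fell in WT cells were Cdkn1a, Nedd9 and Adra1b, with log2 fold changes of -0.40, -1.64 and -0.91. Cdkn1a and Nedd9 also fell in KO cells, by 0.38 and 1.56 on the log2 scale, while Adra1b had a change of -0.40 there that did not pass (adjusted p = 0.0746, edgeR). Of 19 tested paralogs of the 10 genes, 9 rose and 4 fell in WT cells and 7 rose and 4 fell in KO cells, with medians of 0.13 and 0.04. The plot of gene lists sets these counts side by side.

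**Figure D3:**
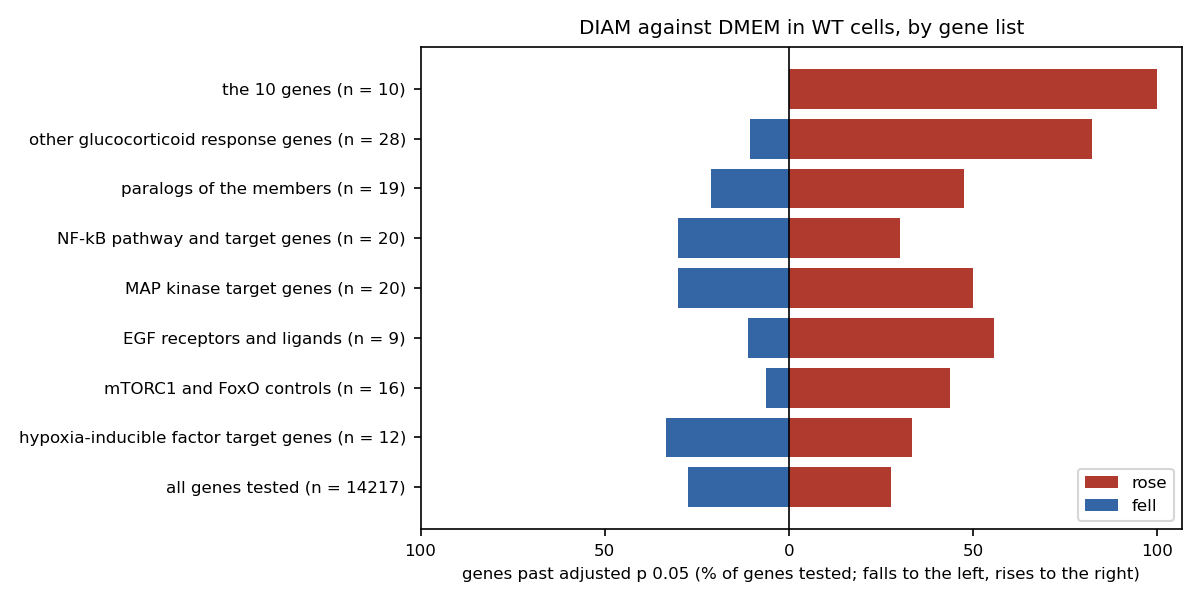
Share of tested genes called higher (right) and lower (left) in DIAM against DMEM in WT cells, for the 10 genes, for 7 related lists and for all 14217 genes tested. The 10 genes and the other glucocorticoid response genes lie mostly to the right, while the NF-kB and hypoxia target lists are even.

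For each of the 10 genes the gene with the most alike pattern of log2(CPM + 1) across the 16 libraries was found by Pearson's r, which takes no account of the size of a change. It was 0.999 between Zbtb16 and Fkbp5, between Tsc22d3 and Folh1, between Sgk1 and Ms4a4d and between Errfi1 and Stim1. The value was 0.998 between Fam107a and Gsn and between Nfkbia and Tob2, 0.997 between Hif3a and Sult5a1 and between Rasd1 and Apoc1, and 0.996 between Dusp1 and Wwp1. The closest to Ddit4 was Klf10, at 0.974. For Ddit4, 454 genes had an r above 0.9, and for each of the other 9 genes 1488 to 1664 did. These values are a description over 16 libraries that share 2 media, and they mostly restate the difference between the media.

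In DMEM none of the 10 genes was called between genotypes, and none had an unadjusted p under 0.05. Over all 14217 genes edgeR called 0%, with 438 genes at an unadjusted p under 0.05, while limma called 0 genes, DESeq2 called 1 and 2 are called in the authors' deposited table, none of them among the 10. No gene of the 10 had libraries of the genotypes that did not overlap, beside 0.774% of all genes with KO libraries wholly above and 0.823% with them wholly below. For the 6 genes above 1 CPM in DMEM the log2 fold change of KO against WT cells lay between -0.07 and 0.08, and their approximate 95% intervals lay within -0.28 and 0.26. For Zbtb16, Hif3a, Rasd1 and Fam107a the values rest on 1 to 37 counts a library. Hif3a had a log2 fold change of 1.16 (interval -0.13 to 2.45), which was -0.04 without KO library 1.

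In DIAM 8 of the 10 genes were fitted higher in KO than in WT cells, by 0.07 to 0.62 on the log2 scale, and 1 of them, Nfkbia, passed the test. The other 2 were Sgk1, at 0.00, and Ddit4, at -0.12. Their median log2 fold change was 0.30, beside 0.00 over all genes tested. Over all genes edgeR called 8.38%, with 3.43% called higher and 4.95% called lower, so that 1 of 10 is near the background. The libraries of the genotypes did not overlap for 3 of the 10, Zbtb16, Hif3a and Nfkbia, all higher in KO cells, and KO libraries lay wholly above WT libraries for 7.38% of all genes and wholly below for 9.05%. Leaving out a library cannot make separated groups overlap. Without WT library 2 no other gene of the 10 joined these 3, and the shares of all genes were 8.34% and 10.0%. At an unadjusted p under 0.05 there were 5 of the 10 genes and 3652 of the 14217 genes tested. All of these values come from 1 set of 8 libraries, so they are not independent of each other.

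Nfkbia was 48.5 ± 7.03 CPM in WT cells and 60.3 ± 2.09 CPM in KO cells in DIAM (n = 4 each). The log2 fold change was 0.32 ± 0.08 (1.24-fold; approximate 95% interval 0.14 to 0.49; adjusted p = 0.0309, edgeR), and all 4 KO libraries were above all 4 WT libraries. Without WT library 2, the lowest at 39.6 CPM, the change was 0.24 and was not called (adjusted p = 0.0666, edgeR). The call was lost in 6 of the 8 fits that left out 1 of these libraries, with adjusted p-values from 0.0104 to 0.0918, and it was kept when WT library 3 or WT library 4 was left out. It was also lost when only these 2 groups were fitted (adjusted p = 0.0905, edgeR).

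Fam107a had the largest difference of the 10 genes, with 26.5 ± 7.38 CPM in WT cells against 40.8 ± 10.3 CPM in KO cells. Its log2 fold change was 0.62 ± 0.21 (1.54-fold; interval 0.16 to 1.09; adjusted p = 0.0794, edgeR), and KO library 4, at 28.5 CPM, lay within the WT range. Hif3a had 25.5 ± 2.94 CPM in WT cells against 35.4 ± 4.06 CPM in KO cells, a log2 fold change of 0.47 ± 0.23 that did not pass (interval -0.03 to 0.97; adjusted p = 0.216, edgeR) although the libraries did not overlap. Zbtb16 had a log2 fold change of 0.29 ± 0.12 (interval 0.03 to 0.55; adjusted p = 0.141, edgeR), with WT libraries up to 119 CPM and KO libraries from 126 CPM. Dusp1, at 112 ± 16.6 and 139 ± 15.9 CPM, had 0.30 ± 0.11 (interval 0.07 to 0.53; adjusted p = 0.0834, edgeR), and KO library 4, at 116 CPM, overlapped the WT libraries. Errfi1, at 506 ± 74.8 and 594 ± 42.7 CPM, had 0.23 ± 0.10 (adjusted p = 0.17, edgeR). Rasd1, the most weakly expressed, had 0.30 ± 0.29 (interval -0.32 to 0.93; adjusted p = 0.553, edgeR).

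The other 3 genes had fitted differences near 0. Sgk1 had 415 ± 26.1 CPM in WT cells against 416 ± 20.0 CPM in KO cells, with an interval of -0.16 to 0.17 on the log2 scale (adjusted p = 0.982, edgeR). The interval of Tsc22d3 ran from -0.11 to 0.25 (adjusted p = 0.649, edgeR) and that of Ddit4, at 52.1 ± 2.13 and 48.0 ± 6.79 CPM, from -0.32 to 0.09 (adjusted p = 0.475, edgeR). A difference of the size fitted for Fam107a lies outside each of these 3 intervals. Other glucocorticoid response genes in the same comparison were higher in 5 and lower in 1 of 28 by the test, with Sult1a1 at 0.55 (adjusted p = 0.0127, edgeR) and Glul, the glutamine synthetase gene, at 0.50 (adjusted p = 0.0156, edgeR), and their median was 0.08. Without WT library 2, 3 of the 28 were called higher and none lower, with Sult1a1 at 0.47 (adjusted p = 0.0347, edgeR) and Glul at 0.41 (adjusted p = 0.0355, edgeR).

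The authors' deposited table calls 4 of the 10 in this comparison. In the authors' deposited table the log2 fold change of Hif3a is 0.48 with an adjusted p of 0.0019. There Nfkbia has 0.32 and 0.0309, Zbtb16 has 0.30 and 0.032, and Fam107a has 0.63 and 0.0437, all in the authors' deposited table. These fold changes differ from the fitted ones above by at most 0.01, and the adjusted p-values are from another test.

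**Figure D4:**
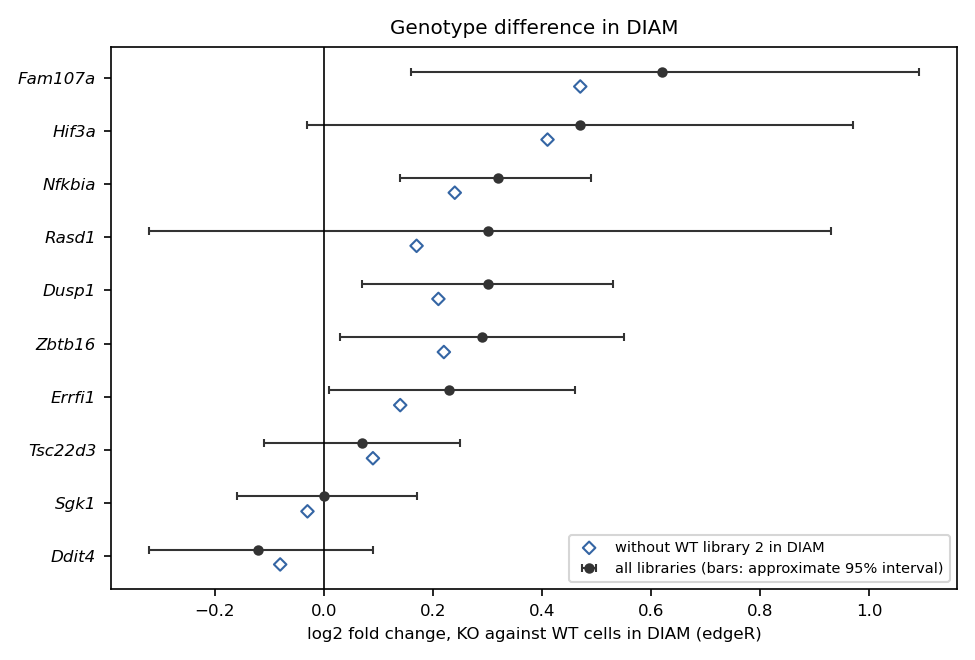
Log2 fold change of KO against WT cells in DIAM for each gene (edgeR; filled points with approximate 95% intervals), and the same without WT library 2 (open diamonds). With all libraries the values run from -0.12 for Ddit4 to 0.62 for Fam107a, and the diamonds are nearer 0 for 8 of the genes. WT library 2 was singled out for its low values of these genes, so the diamonds are no independent check.

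These differences were smaller for most genes without WT library 2. That library was singled out as the lowest of its group for 8 of the 10 genes. Leaving it out must raise the WT mean of those genes, so the smaller differences are no independent check. The difference of WT library 2 from the mean of the other 3 WT libraries in DIAM was -41.2% for Fam107a, -37.9% for Rasd1, -27.1% for Dusp1, -26.9% for Errfi1, -23.0% for Nfkbia, -22.0% for Zbtb16, -17.0% for Hif3a and -11.9% for Sgk1. For Tsc22d3 it was 4.68% and for Ddit4 8.01%. Without it the median log2 fold change of KO against WT cells over the 10 genes was 0.19 in place of 0.30, 8 of the 10 were above 0, and none was called. Fam107a was then at 0.47, Hif3a at 0.41, Zbtb16 at 0.22, Dusp1 at 0.21, Rasd1 at 0.17, Errfi1 at 0.14, Tsc22d3 at 0.09, Sgk1 at -0.03 and Ddit4 at -0.08. KO library 4 in DIAM was the lowest of its group for Dusp1, Errfi1, Sgk1 and Fam107a and the highest for Ddit4, Zbtb16 and Nfkbia. Its summed smooth muscle markers, at 2260 CPM, were the lowest of the KO libraries in DIAM, where the others had 3030 to 3440 CPM. Leaving it out raised the fitted difference to 0.76 for Fam107a and 0.38 for Dusp1 (adjusted p = 0.0394 and 0.0379, edgeR), and each was then called. The map of deviations by library shows the pattern for all 10 genes.

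**Figure D5:**
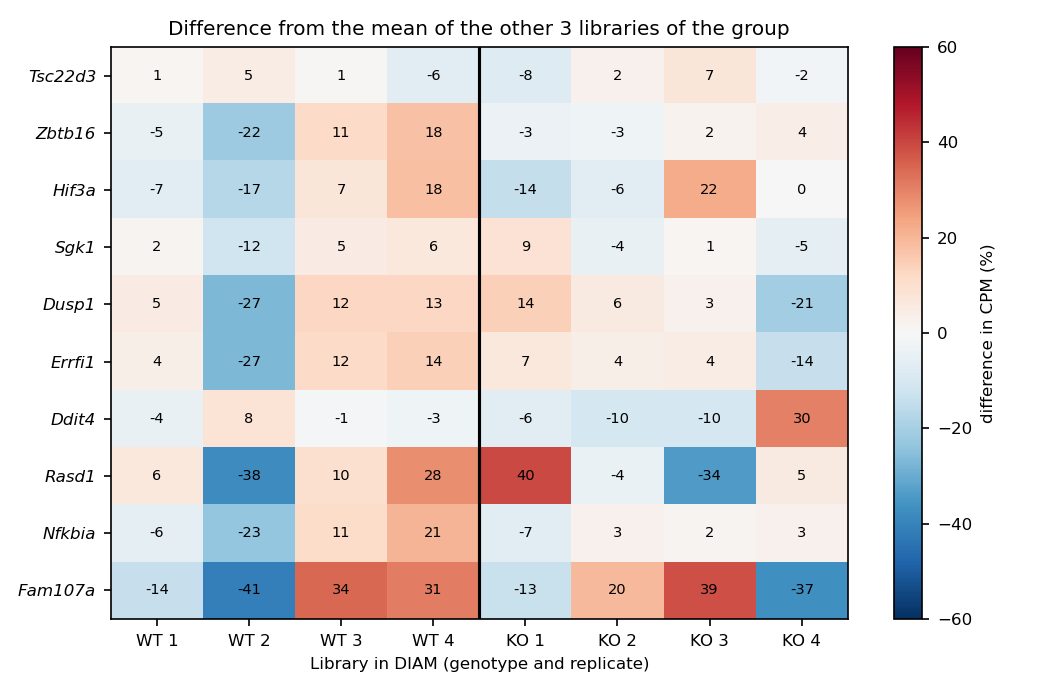
Difference of each DIAM library from the mean of the other 3 libraries of its genotype, in percent of CPM, for the 10 genes. The column of WT library 2 is negative for 8 genes, from -11.9% for Sgk1 to -41.2% for Fam107a, and positive for Tsc22d3 and Ddit4.

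The summed levels of cell type markers in DIAM were not tested between genotypes. The libraries of the genotypes did not overlap for the Schwann cell sum and overlapped for the sums of the other lists given here. Schwann cell markers summed to 243 to 588 CPM in WT and 42.8 to 160 CPM in KO libraries, and adipocyte markers to 1540 to 2430 CPM in WT and 2240 to 3350 CPM in KO libraries. None of the 5 tested Schwann cell markers and 1 of the 7 adipocyte markers, Plin1, passed the test between genotypes, and without WT library 2 Plin1 did not (adjusted p = 0.115, edgeR). Fibroblast markers summed to 15600 to 17500 CPM in WT and 17000 to 19700 CPM in KO libraries in DIAM, and without Gsn to 4810 to 7570 and 3010 to 4700 CPM, which did not overlap. Smooth muscle markers summed to 2130 to 3000 and 2260 to 3440 CPM. Mesothelial markers summed to 117 to 312 and 197 to 654 CPM, leukocyte markers to 790 to 1370 and 1020 to 1310 CPM, and endothelial markers to 90.6 to 129 and 79.4 to 128 CPM in WT and KO libraries in DIAM. Their part in the differences of the 10 genes was not tested.

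The rise in DIAM was also compared between genotypes directly, as the interaction of genotype and medium. It was called for none of the 10 genes, and Dusp1 was the only one with an unadjusted p under 0.05, at a log2 difference of 0.33 ± 0.15 (adjusted p = 0.306, edgeR). For Nfkbia it was 0.24 ± 0.12 (interval -0.02 to 0.49; adjusted p = 0.34, edgeR), so a larger rise in KO cells was not shown. The median over the 10 genes was 0.13, and without WT library 2 in DIAM it was 0.09, with Dusp1 at 0.23, Nfkbia at 0.15 and none called. Over all 14217 genes tested, edgeR called 0% and limma called 0 genes for this term. By edgeR 2255 of them had an unadjusted p under 0.05. DESeq2 called 225 genes, and 234 are called in the authors' deposited table. For Tsc22d3, Sgk1 and Ddit4 the intervals of the interaction ran from -0.12 to 0.41, -0.28 to 0.19 and -0.33 to 0.25. For the 4 genes near 0 counts in DMEM the intervals were wide, for example -1.98 to 1.59 for Fam107a, and at this depth in DMEM a difference between genotypes in their rise could not be resolved.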

How the data were processed

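Total RNA libraries of 16 samples were used, 4 in each of 4 groups, and no column was left out. Per the labels' protocols they were made with an unstranded TruSeq kit after depletion of ribosomal RNA, so reads of overlapping antisense genes cannot be told apart. All samples carry 1 batch label. The number of biological replicates is 4 in the design text but the library protocol names triplicates. Where replicates are not separate cultures, p-values measure only the spread between libraries. Per the submitters' processing notes the authors used FastQC, Salmon 1.9.0, DESeq2 1.46.0, R 4.4.2 and build GRCm39. The deposited table is labelled TPM, but its columns sum to 37221192 to 47626331, unlike TPM, and were read as estimated counts per gene. Log2 fold changes and adjusted p-values of the authors, deposited in the same table, were used only where named.

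Estimated counts were rounded. Genes with 1 CPM or more in 4 or more libraries were kept, which left 14217 of 20581 genes with 99.83% or more of the counts of each library. They were fitted with edgeR 4.0.16 in R 4.3.3 (quasi-likelihood test, two-sided, TMM scaling, a coefficient per group, 12 residual degrees of freedom), and p-values were adjusted by Benjamini-Hochberg over all genes tested. The scripts were tested on simulated data. SE is the log2 fold change over the square root of F and is approximate. Ratios for the 4 lowest genes are of summed counts, with exact intervals that cover counting error only. The members and gene lists were chosen with earlier results of these data known. Named genes are the 10, the 2 of smallest p per list and, for likeness, the 1 gene with the highest correlation. The few others were chosen after their values were seen. Alternatives were DESeq2 1.42.0, limma 3.58.1 on log2(CPM + 1), median-ratio and quantile scaling, no filter or 5 CPM, 2-group fits, a replicate block, the authors' deposited table and leaving out each library. Sequences are from RefSeq on GRCm38.p6, not the build of the counts.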

Additional observations from a re-analysis of the deposited data

Results flagged for a closer look

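In 6 of the 40 combinations of gene and group, 1 library lay far from the other 3 by Dixon's criterion for 4 samples, where chance alone gives about 1 in 20. Of the 6, 3 are low counts in KO cells in DMEM. Hif3a was at 0.969 CPM in KO library 1, against 0.129 to 0.171 CPM in the other 3. Rasd1 was at 0.407 CPM in KO library 4, against 0.105 to 0.129 CPM. Fam107a was at 0.239 CPM in KO library 4, against 0.0488 to 0.0786 CPM. The other 3 are in KO cells in DIAM. Errfi1 was at 530 CPM and Ddit4 at 58.2 CPM in KO library 4, against 610 to 622 and 44.2 to 45.7 CPM. Nfkbia was at 57.2 CPM in KO library 1, against 61.0 to 61.5 CPM.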

How the results depend on the processing

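In DIAM against DMEM the values of the 10 genes kept their direction and their call in all alternatives. These were 170 values in WT cells and 160 in KO cells. Zbtb16, Hif3a, Rasd1 and Fam107a met the filter only through DIAM libraries, so their direction and call could hardly differ. The sizes of their changes were smaller with limma and with quantile normalization (for Fam107a in WT cells 4.65 and 5.41 in place of 8.74). Only the calls of the other 6 genes bear on the processing. In each fit without 1 library 10 of 10 were called. Those fits called 7245 to 7805 genes in WT cells and 8058 to 8306 in KO cells. Quantile normalization called 3283 genes higher and 4884 lower in WT cells, in place of 3929 and 3910, and 3665 and 5104 in KO cells, in place of 4243 and 4380. Between genotypes in DIAM the 1 gene of the 10 called became 3 with DESeq2 (Nfkbia, with Dusp1 at 0.31 and Zbtb16 at 0.30), 2 with limma (Nfkbia, with Fam107a at 0.61), 4 in the authors' deposited table, 0 when only those 2 groups were fitted and 0 to 2 without 1 library. The adjusted p of Nfkbia ranged from 0.00682 to 0.0918 over its alternatives. Over all genes, 1191 were called in that comparison by edgeR, 1873 by DESeq2, 1810 in the authors' deposited table, 0 with only the 2 groups and 178 to 1480 without 1 library (178 without KO library 2, 275 without KO library 1, 299 without WT library 1, 316 without WT library 2). In DMEM 1 gene was called by DESeq2, 2 in the authors' deposited table and 0 to 2 without 1 library, with 2 without KO library 1. The interaction was called for 225 genes by DESeq2, 234 in the authors' deposited table and 0 to 1 without 1 library. The cause was not tested.

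Some uncalled log2 values of the 10 genes changed sign. The interaction of Hif3a was 0.21 with quantile normalization and 0.27 with limma, and that of Fam107a 0.51 and 0.56. Without 1 library the interaction ranged from -0.96 to 0.52 for Hif3a, -0.52 to 0.61 for Fam107a, -0.15 to 0.03 for Ddit4 and -0.11 to 0.80 for Zbtb16, and the genotype difference in DMEM from -0.51 to 0.41 for Zbtb16, -0.08 to 0.04 for Errfi1, -0.06 to 0.04 for Dusp1 and -0.04 to 1.43 for Hif3a.

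Groups share replicate numbers. Between the media of a genotype, deviations of same-numbered libraries correlated from -0.09 to 0.27 in WT and 0.01 to 0.32 in KO cells. They were best with the own number for numbers 1, 3 and 4 in WT and 1 and 4 in KO cells. Between genotypes they correlated from -0.22 to 0.17 in DMEM and -0.2 to -0.04 in DIAM. There they were best with the own number only for number 4 in DMEM. Whether same-numbered libraries of a genotype share a culture is not stated in the sources used here. The main fits used no pairing. With same-numbered libraries of a genotype paired as a block, 8008 genes in WT cells, 8775 in KO cells and 0 for the interaction were called. Of the 10 genes these were 10, 10 and 0. Between genotypes the replicate number was the block, and 0 genes were called in DMEM and 1191 in DIAM. Of the 10 genes these were 0 and 1, with Nfkbia in DIAM at an adjusted p of 0.0209 (edgeR).

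Depth limits the DMEM values of Zbtb16, Hif3a, Rasd1 and Fam107a, which rest on 1 to 37 counts a library.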
